A study of Mus musculus with 15 samples.

Results

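The mitochondrial ribosomal protein genes of the murine A20 lymphoma line were followed in parental cells and in 4 clones edited at *Foxp1*. They were chosen by name, as protein-coding genes whose mouse symbol is Mrpl or Mrps followed by a number. Of 41388 genes in the count tables, 77 met this rule, and 76 of them were among the 13904 genes with enough reads to be tested. The exception was *Mrpl53*, for which between 0 and 2 read pairs were counted in any library. Of its exon bases, 87.1% lie inside another annotated gene (named Gm42688 in GENCODE M21), and read pairs that overlap more than 1 gene were not counted. *Mrpl33* could not be matched by gene identifier and was not analysed here.

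The mitochondrial ribosome translates the few messenger RNAs of the mitochondrial genome, all of which encode subunits of the respiratory chain and ATP synthase. Its ribosomal RNAs are made inside the organelle, but its proteins are encoded in the nucleus, translated in the cytosol and imported. Some of these proteins descend from bacterial ribosomal proteins, and others were added in the mitochondrial lineage. Proliferating lymphocytes depend on this translation to build their respiratory chain. The chosen genes comprised 50 large-subunit members, 26 small-subunit members and *Mrps36*, whose product is now known as a component of the 2-oxoglutarate dehydrogenase complex. *Mrps30* and *Mrps18a* were counted with the large subunit, where their proteins reside.

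A20 is a B-cell lymphoma line derived from a BALB/c mouse. RNA was sequenced from unedited A20 cells (genotype WT, here parental), from 2 lines with a mutation in *Foxp1* exon 6 (E6.1 and E6.2) and from 2 lines with a mutation in exon 7 (E7.1 and E7.2). Foxp1 is a forkhead transcription factor that regulates many genes in B cells. Each line was represented by 3 libraries, which the submitters describe as biological replicates from different passages. The lines were edited with CRISPR/Cas9, and each carries a frameshift that ends in an early stop codon. Each edited line grew from a single cell, so any feature of 1 founder cell is shared by its 3 libraries and cannot be told apart from the edit. The 4 comparisons with parental cells use the same 3 parental libraries. Where 4 values are listed below without names, they stand in the order E6.1, E6.2, E7.1, E7.2.

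Library totals ranged from 26328054 to 39181530 assigned read pairs (median 35586010). The B-cell genes *Cd79a* and *Cd74* were expressed in all 15 libraries, with *Cd79a* between 51.6 and 229 counts per 1000000 (CPM) and *Cd74* between 1975 and 3205 CPM. Of 6 markers of other cells, *Cd3e* and *Nkg7* were at 0 in every library, *Lyz2*, *Csf1r* and *Col1a1* did not exceed 0.236 CPM, and *Epcam* was between 0.826 and 3.43 CPM. *Foxp1* ranged from 102 to 166 CPM in parental cells, from 99.5 to 109 CPM in the exon 6 clones and from 37.1 to 64.3 CPM in the exon 7 clones. Its transcript fell in both exon 7 clones, with log2 fold changes of -1.29 (E7.1, adjusted p = 0.00688) and -1.69 (E7.2, adjusted p = 0.00116). It did not pass the test in the exon 6 clones, at -0.41 (E6.1, adjusted p = 0.765) and -0.39 (E6.2, adjusted p = 0.417). A frameshift acts on the protein, so the transcript level is a limited check of the edit. Replicate 3 of E6.2 and replicate 3 of E7.2 stood apart from all other libraries in several respects. The median cytosolic ribosomal protein gene was 0.94 and 1.31 log2 units above its parental mean in them, against -0.41 to 0.20 in the other 13 libraries. *Pax5*, a transcription factor of B cells, was at 10.1 and 16.8 CPM against 22.8 to 44.5 CPM, *H2-Aa*, an MHC class II chain, was at 1241 and 1194 CPM against 566 to 906 CPM, and the TMM scaling factors were 0.906 and 0.826 against 0.966 to 1.054. Results are therefore also given without these 2 libraries, and their part in each result beyond that was not tested.

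Promoters were examined first, since the genes of this family are scattered over 17 chromosomes yet are produced for 1 particle. RefSeq promoters (GRCm38.p6), which run from 250 bases before to 50 bases after the transcript start, were matched for 68 of the 77 genes (74 promoters). Each short motif was searched on both strands, and the motifs may overlap. CCGGAAG, the core bound by ETS factors such as GABPA, was present in 33.8% of member promoters against 8.86% of all 32851 promoters in the table. AAGATGGC, a YY1 motif, was present in 16.2% against 2.75%, and GCGCATGC, an NRF1 motif, in 9.46% against 2.71%. GGGGCGGGG, bound by SP factors, occurred in 20.3% against 11.5%, and the E-box CACGTG occurred in 9.46% against 7.15%, although 3 of its 7 member promoters are overlapping windows of *Mrpl2*. GTAAACA, the core recognised by forkhead proteins such as Foxp1, occurred in 2.70% against 3.65%, namely in the promoters of *Mrpl40* and *Mrpl44*. Counted by gene, 5 of 68 members (7.35%) held the E-box, compared with 8.09% of 27025 genes. The other shares by gene were 36.8% against 9.93% for the ETS core, 17.65% against 3.19% for YY1, 10.3% against 3.05% for NRF1, 19.1% against 12.9% for SP factors and 2.94% against 4.05% for the forkhead letters. Promoters of genes of every kind are in the comparison, so these shares describe the letters and not the binding of a factor. The promoters of the 3 genes that differed among the 5 lines are shown for context, in lower case with any of the searched motifs in capitals. All lie on the minus strand and are written 5′ to 3′, at chr17:12916042-12916341 for *Mrpl18*, chr3:95871465-95871764 for *Mrps21* and chr6:92183974-92184273 for *Mrps25*.
Mrpl18: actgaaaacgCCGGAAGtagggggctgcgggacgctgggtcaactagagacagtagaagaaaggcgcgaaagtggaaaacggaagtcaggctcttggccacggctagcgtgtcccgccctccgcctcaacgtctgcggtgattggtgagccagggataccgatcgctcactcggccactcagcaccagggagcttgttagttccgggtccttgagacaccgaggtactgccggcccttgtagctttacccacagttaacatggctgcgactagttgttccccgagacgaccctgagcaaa
Mrps21: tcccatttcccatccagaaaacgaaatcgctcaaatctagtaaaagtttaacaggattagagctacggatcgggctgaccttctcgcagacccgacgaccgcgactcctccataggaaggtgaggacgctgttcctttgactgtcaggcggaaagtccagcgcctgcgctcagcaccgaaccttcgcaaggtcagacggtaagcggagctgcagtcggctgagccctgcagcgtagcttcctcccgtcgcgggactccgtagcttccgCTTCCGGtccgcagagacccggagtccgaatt
Mrps25: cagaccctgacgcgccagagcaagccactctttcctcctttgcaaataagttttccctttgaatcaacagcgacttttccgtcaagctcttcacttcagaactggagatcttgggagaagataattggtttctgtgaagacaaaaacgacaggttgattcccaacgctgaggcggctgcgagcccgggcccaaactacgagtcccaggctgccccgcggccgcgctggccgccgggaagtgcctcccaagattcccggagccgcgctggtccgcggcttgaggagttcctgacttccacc
The capitals mark 1 ETS core in *Mrpl18*, near the upstream end, and 1 ETS core in *Mrps21*, read on the opposite strand and downstream of the start. None of the 6 motifs is in the *Mrps25* window, and none of the 3 windows holds the forkhead letters.

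Within parental cells the members differed widely in level. On the scale of CPM per kilobase of exon, the median member was at 21.1, and the range from 1.46 to 119 spanned 81.4-fold. *Mrpl42* was highest (119 ± 16.3 CPM per kilobase, SD, n = 3). *Mrpl32* (95.7 ± 15.3), *Mrps30* (80.9 ± 14.3), *Mrpl52* (78.7 ± 11.1) and *Mrpl36* (76.7 ± 13.2) followed, all of them large-subunit genes. At the other end were *Mrpl48* (5.68 ± 0.615), *Mrpl19* (5.04 ± 0.452), *Mrps25* (4.53 ± 0.464), *Mrps11* (4.51 ± 0.227) and *Mrps34* (1.46 ± 0.318). The divisor is the length of all annotated exons of a gene, so the range and the order depend on the annotation as well as on the counts. *Mrpl48* and *Mrpl52* had similar mean counts in parental cells, 34.8 and 32.4 CPM, over 6119 and 412 bases of exon. Read pairs that overlap more than 1 gene were not counted, and exon bases shared with another gene make up 77.8% of *Mrps34* (with Mapk8ip3 and Nme3), 53.7% of *Mrps25* (with Nr2c2) and 36% of *Mrpl19* (with Gcfc2). In all, 25 of the 76 members share exon bases with another gene, 17 of them over 10%, and 5 pseudogenes are named after a member, so the counts of these genes are uncertain. Large-subunit genes had a median of 23.5 CPM per kilobase and small-subunit genes 15.3. Neighbours in the order were rarely separable: in only 4 of 75 neighbouring pairs did the 3 parental libraries not overlap. The order in the clones was close to that in parental cells, with Spearman's rho over the 76 genes of 0.985, 0.971, 0.950 and 0.974, given as a description across genes that share their libraries.

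**Figure D1:**
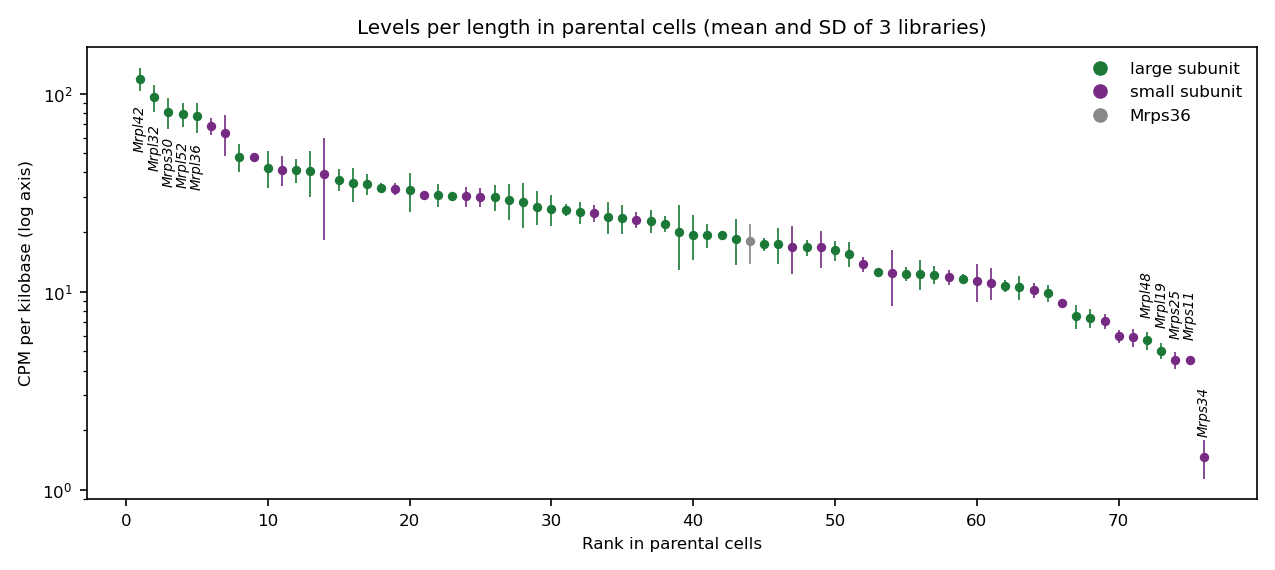
Level per length of the 76 tested mitochondrial ribosomal protein genes in parental cells, in CPM per kilobase of exon on a log axis, ordered from highest to lowest (points: mean of 3 libraries; bars: SD). Levels run from 119 for *Mrpl42* to 1.46 for *Mrps34*, and large-subunit genes hold the first 5 places.

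The first comparison asked how the set stood in each clone relative to parental cells. Most members had a fold change above 0 in every clone, by amounts that were small for single genes. The median log2 fold changes over the 76 members were 0.16, 0.13, 0.15 and 0.13, beside 0.00, 0.06, -0.02 and 0.00 over all 13904 genes. Members above 0 numbered 65 (85.5%), 60 (78.9%), 53 (69.7%) and 52 (68.4%), where 49.9%, 56.7%, 47.8% and 50.4% of all genes were above 0. No member exceeded a log2 fold change of 1 in either direction. The sum of the members' CPM was 3717 ± 304 in parental cells (SD, n = 3). In the clones it was 4202 ± 196, 4045 ± 686, 4052 ± 186 and 3932 ± 178, which is 1.13, 1.09, 1.09 and 1.06 times the parental sum.

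The libraries of a line did not all lie on the same side. In parental cells, the median member was at -0.05, -0.06 and 0.10 log2 units relative to the parental mean in replicates 1, 2 and 3. The values were 0.21, 0.15 and 0.16 in E6.1, so all 3 libraries of this clone lay above the parental range. In E7.1 the values were 0.20, 0.18 and 0.09, and in E7.2 they were 0.15, 0.06 and 0.11, both overlapping the highest parental library. E6.2 spread most, with -0.16, 0.13 and 0.34, and its library at 0.34 was replicate 3, one of the libraries that stood apart. Without that library the median log2 fold change in E6.2 was -0.01 (all genes: 0.03), and without both libraries it was -0.03 (all genes: 0.01). The small positive median in E6.2 was therefore lost without replicate 3. It was 0.23 without E6.2 replicate 1 (all genes: 0.01) and 0.11 without E6.2 replicate 2 (all genes: 0.07). Without both libraries the other medians were 0.16 (E6.1), 0.17 (E7.1) and 0.14 (E7.2). The number of cells and the RNA content per cell cannot be told apart in these bulk libraries, and all values are relative to each library's total.

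**Figure D2:**
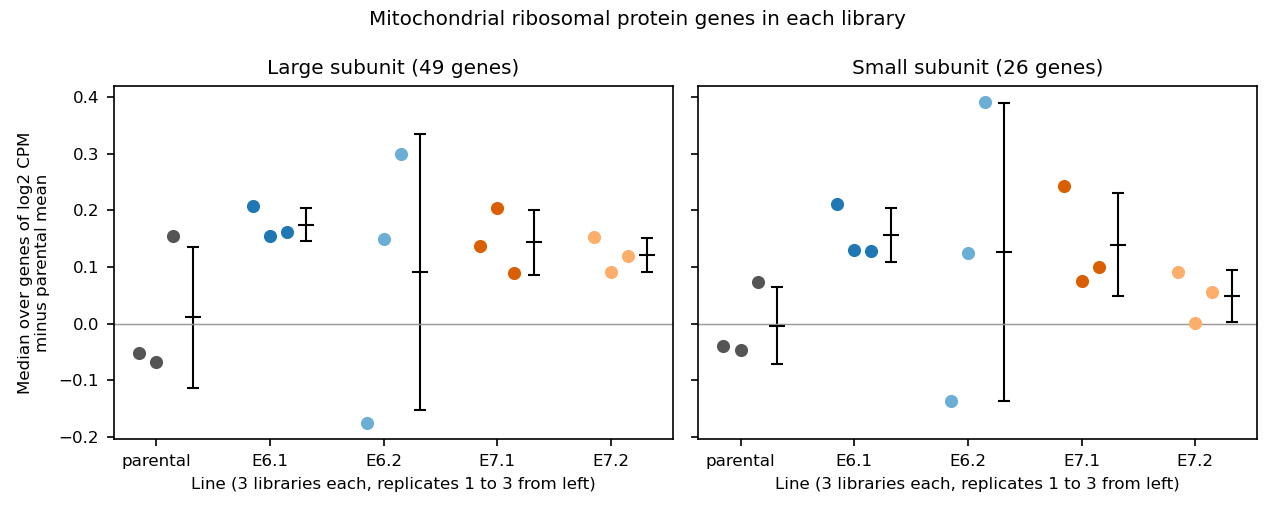
Median log2 CPM of large-subunit (left) and small-subunit (right) genes in each library, minus the mean of the parental libraries (points: libraries, replicates 1 to 3 from left; black: mean and SD of 3). E6.1 lies at or above the highest parental library in both panels, and the 3 libraries of E6.2 span from below the parental libraries to above them.

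Gene by gene, few members passed the test in any clone. At an adjusted p under 0.05 (edgeR quasi-likelihood test, Benjamini-Hochberg over all genes), 0 members were called in E6.1, where 0.0575% of all genes were called higher and 0.266% lower. In E6.2, 0 members were called (all genes: 0.165% higher, 1.01% lower). In E7.1, *Mrps21* alone was called higher and 0 members lower (all genes: 0.396% and 0.82%). In E7.2, 0 members were called (all genes: 0.0863% and 0.209%). DESeq2's Wald test called 1, 0, 11 and 0 members in the 4 clones, and edgeR's likelihood ratio test called 1, 0, 9 and 0. These tests called more of all genes too, 8.32% (Wald) and 5.38% (likelihood ratio) in E7.1. The count in E7.1 was 13 without E6.2 replicate 3 (7.05% of all genes), 7 without E7.2 replicate 3 (4.25%) and 3 without E6.2 replicate 1 (2.10%), all higher. Without parental replicate 1 it was 11, of which 10 were higher and 1 lower (6.81% of all genes). It was 0 without any 1 of the other 11 libraries, where 0.209% to 0.640% of all genes were called. Without both libraries that stood apart it was 17, or 22.4%, compared with 15.2% of all genes. Whether shifts of the size seen in most members could be detected singly was not tested.

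At an unadjusted p under 0.05, 8 members were above parental cells in E6.1 and 0 below (all genes: 2.87% above, 3.84% below), so 10.5% of the members were above. In E6.2 there were 6 above, or 7.89%, and 0 below (all genes: 6.26% and 6.79%). In E7.1 there were 22 above, or 28.9%, and 2 below (all genes: 9.94% and 10%). In E7.2 there were 4 above, or 5.26%, and 0 below (all genes: 5.98% and 7.34%). These counts moved when 1 library was left out, and so did the shares of all genes. In E6.1 the count above parental cells ranged from 2, or 2.63% (all genes: 1.41%), without E6.1 replicate 1 to 12, or 15.8%, without parental replicate 3 (2.61%) or E6.2 replicate 3 (4.39%), and it was 5 without parental replicate 1 or 2. In E7.1 it ranged from 13, or 17.1% (all genes: 6.02%), without parental replicate 2 to 27, or 35.5% (13.6%), without E6.2 replicate 3. The members' share was above that of all genes in each of these 15 fits in E6.1 and in E7.1. In E6.2 and E7.2 it was on either side. The count in E6.2 was 3, or 3.95% (all genes: 5.22%), without parental replicate 2 and 16, or 21.1% (7.25%), without E6.2 replicate 1. In E7.2 it was 1, or 1.32%, without parental replicate 2 (3.59%) or 3 (3.16%), 2 without E7.2 replicate 1 (6.22%), 10, or 13.2%, without E6.2 replicate 1 (8.39%) or E7.2 replicate 3 (6.64%), 11 without parental replicate 1 (8.14%) and 14, or 18.4%, without E6.2 replicate 3 (11.4%). Counting genes whose 3 libraries all lay outside the parental range gave 18 members above and 0 below in E6.1, where 11.3% of all genes were above and 11.2% below. The counts were 8 and 1 in E6.2 (all genes: 6.13% and 8.61%), 29 and 4 in E7.1 (16.4% and 15.6%) and 12 and 3 in E7.2 (10.8% and 13.3%). In total, 31 members (40.8%) had a fold change above 0 in all 4 clones, compared with 16.1% of all genes, and 0 members were below 0 in all 4, compared with 13.9% of all genes. Since the clones share the parental libraries, these 4 signs are not independent.

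**Figure D3:**
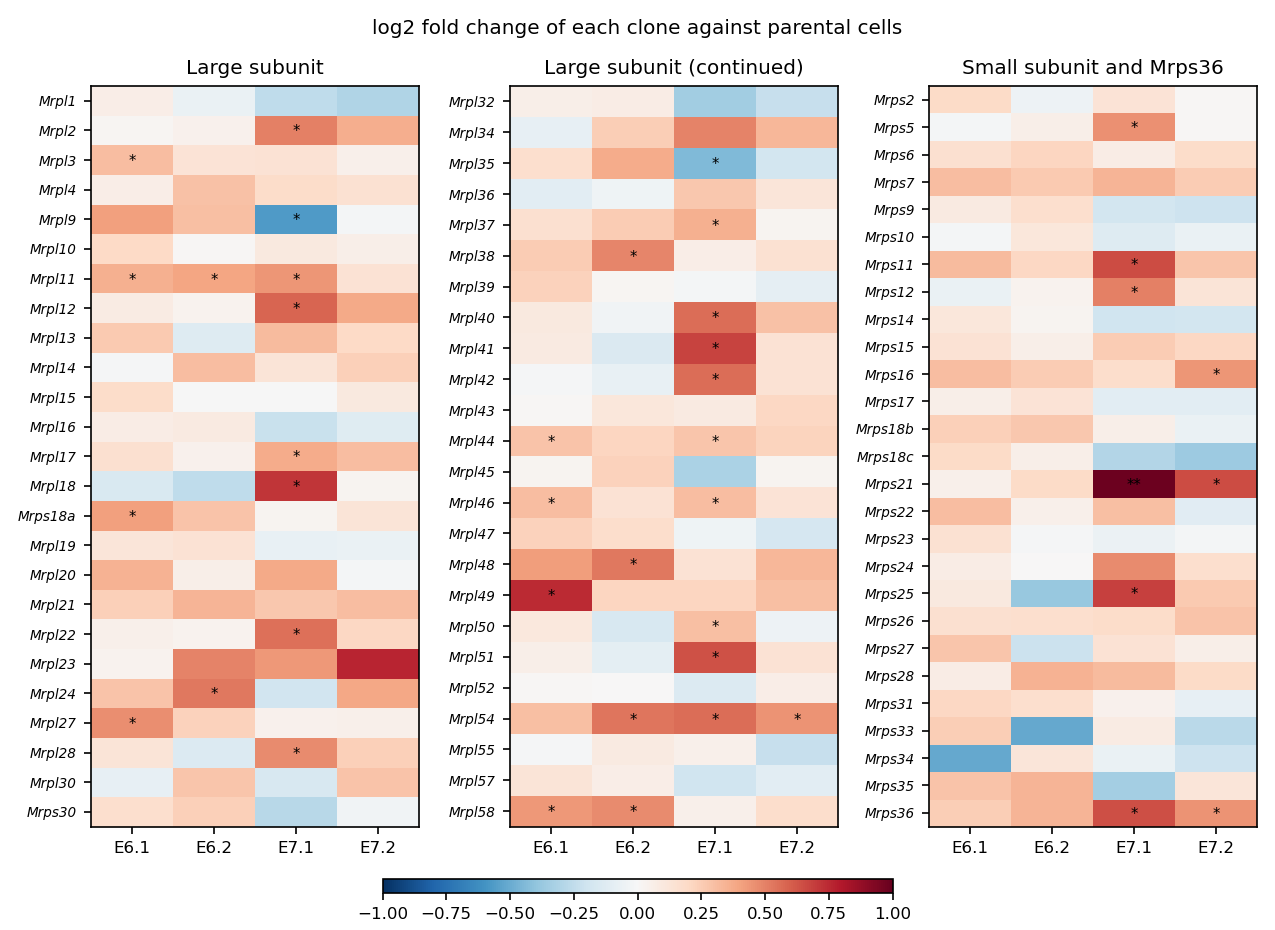
log2 fold change of each of the 76 tested genes in each clone against parental cells, by subunit, from -1 (blue) to 1 (red); 1 asterisk marks an unadjusted p under 0.05 and 2 asterisks an adjusted p under 0.05. Red cells prevail in all 4 columns, asterisks are most frequent in E7.1, and *Mrps21* in E7.1 is the only cell with 2 asterisks.

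*Mrps21* encodes a small-subunit protein with a bacterial counterpart (bS21m) and lies on chromosome 3 (95862634 to 95871519, minus strand, GRCm38). Its level was 28.5, 18.6 and 17.9 CPM in the parental libraries, 20.6, 26.4 and 20.4 in E6.1 and 21.2, 21.4 and 31.6 in E6.2. It was 51.2, 38.2 and 38.8 CPM in E7.1 and 31.3, 35.7 and 35.0 in E7.2. Every exon 7 library lay above every parental library, and the exon 6 libraries overlapped the parental ones. The gene rose in E7.1, with a log2 fold change of 0.98 ± 0.21 (SE, adjusted p = 0.0410). In E7.2 the fold change was 0.65 ± 0.21 (adjusted p = 0.245), and in the exon 6 clones it was 0.05 and 0.19. The call in E7.1 was made in 12 of 26 alternative fits (adjusted p from 0.00101 to 0.236), including 4 of the 15 fits that left out 1 library, and was lost without any 1 of the 3 E7.1 libraries.

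Among the large-subunit genes, *Mrpl49* and *Mrpl23* had the largest fold changes in E6.1 and in E7.2. *Mrpl49*, whose product is specific to mitochondrial ribosomes and whose gene lies head to head with *Fau*, was at 35.8, 51.2 and 51.8 CPM in parental cells and at 86.7, 66.7 and 79.8 CPM in E6.1. All 3 E6.1 libraries were above the parental range, and the other clones, between 47.5 and 64.5 CPM, overlapped it. Its log2 fold change in E6.1 was 0.75 ± 0.18, with an adjusted p of 0.126 (0.0134 to 0.609 over 26 alternative fits, below 0.05 in 3). *Mrpl23*, a tunnel-exit protein gene, had the largest fold change in E7.2 (0.76 ± 0.42, adjusted p = 0.437). Replicate 3 of E7.2 was at 86.5 CPM, the other E7.2 libraries at 47.8 and 47.4 CPM and the parental ones at 50.5, 28.2 and 28.4 CPM. Without replicate 3 of E7.2 the fold change was 0.45. It ranged from 0.45 to 1.12 when each library was left out in turn. In E6.2, *Mrpl54* (0.54), *Mrpl24* (0.53) and *Mrpl48* (0.53) had the largest fold changes and were likewise highest in replicate 3. Without both libraries that stood apart, they were 0.18, 0.33 and 0.16. The remaining genes with the largest fold changes in E6.1 were *Mrps34* (-0.51, adjusted p = 0.888) and *Mrpl27* (0.47, adjusted p = 0.434).

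Only *Mrpl11* and *Mrpl54* had an unadjusted p under 0.05 in the same direction in 3 clones. *Mrpl11* encodes a protein at the base of the stalk that recruits translation factors. Its level was 32.3, 28.3 and 31.9 CPM in parental cells and 42.7, 38.5 and 37.4 CPM in E6.1. It was 34.96, 37.8 and 48.6 CPM in E6.2, 46.4, 39.96 and 39.4 CPM in E7.1, and 34.2, 32.8 and 35.5 CPM in E7.2, so every library of every clone was above the parental range. The log2 fold changes were 0.36, 0.39, 0.44 and 0.15 (adjusted p = 0.562, 0.242, 0.0964 and 0.625). *Mrpl54*, specific to mitochondrial ribosomes, was at 21.8, 17.2 and 17.6 CPM in parental cells and had log2 fold changes of 0.30, 0.54, 0.56 and 0.45, the largest adjusted p of the last 3 being 0.374. *Mrps36*, the gene outside the ribosome proper, was at 28.9, 20.9 and 18.8 CPM in parental cells, and the exon 7 libraries, from 29.9 to 41.02 CPM, were all above that range. Its log2 fold changes were 0.24, 0.34, 0.64 and 0.45 (adjusted p = 0.921, 0.412, 0.0694 and 0.302).

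A test over all 5 lines at once, which needs no choice of control, called 3 members, or 3.95%, compared with 6.28% of all genes. They were *Mrps21* (adjusted p = 0.0294), *Mrps25* (0.0316) and *Mrpl18* (0.0425). The share was below that of all genes. Without the 2 libraries that stood apart, 21 members were called, compared with 28.6% of all genes. The number ranged from 0 to 16 when each library was left out in turn, reaching 16 without E6.2 replicate 3 (20.2% of all genes), 10 without parental replicate 1 (9.55%) and 7 without E7.2 replicate 3 (11.7%). It was 0 without parental replicate 2 or 3, E6.1 replicate 1 or 3, E7.2 replicate 2 or any E7.1 library. In these fits the share of all genes called was also lower, from 2.45% to 3.57%.

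The exon 7 clones were then compared directly with the exon 6 clones, in which the parental libraries serve only to estimate the spread. That spread is between libraries of the same line. Libraries of a clone are not replicates of its exon target, so the p-values do not measure how far clones of the same target differ. Here 7 members were higher in the exon 7 clones, or 9.21%, and 4 were lower, or 5.26%, where 6.21% of all genes were higher and 5.85% lower. These shares are near those of all genes. The median difference over the members was -0.01, beside -0.03 over all genes. The members called thus lay on both sides. Higher in the exon 7 clones were *Mrps21* (log2 difference 0.69), *Mrps25* (0.61), *Mrpl18* (0.57), *Mrpl41* (0.44), *Mrpl51* (0.41), *Mrpl42* (0.40) and *Mrpl40* (0.39). Lower were *Mrpl9* (-0.65), *Mrpl35* (-0.59), *Mrps18c* (-0.45) and *Mrps9* (-0.32). The 2 exon 7 clones did not contribute alike. Against parental cells, the 7 higher genes had log2 fold changes of 0.98, 0.68, 0.71, 0.67, 0.63, 0.56 and 0.56 in E7.1. In E7.2 they had 0.65, 0.26, 0.03, 0.14, 0.15, 0.14 and 0.29, in the order listed. The 4 lower genes had -0.57, -0.44, -0.29 and -0.18 in E7.1, and -0.02, -0.19, -0.36 and -0.21 in E7.2. The number called was 27 without both libraries that stood apart, compared with 33.1% of all genes, and 23 without E6.2 replicate 3 alone. The share of all genes moved with it, from 2.77% without E6.1 replicate 1 to 26.8% without E6.2 replicate 3. The count fell to 1, or 1.32%, without E6.1 replicate 1 (2.77% of all genes) or 3 (3.00%). It was 2, or 2.63%, without E7.1 replicate 1 (5.44%) or E7.2 replicate 1 (4.60%) or 2 (4.01%). It was 4, or 5.26%, without E7.1 replicate 3 (6.06%) and 6, or 7.9%, without E7.1 replicate 2 (6.90%). It was 7, or 9.21%, without parental replicate 2 (8.68%) or 3 (9.03%), E6.1 replicate 2 (10.7%) or E6.2 replicate 2 (7.47%).

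**Figure D4:**
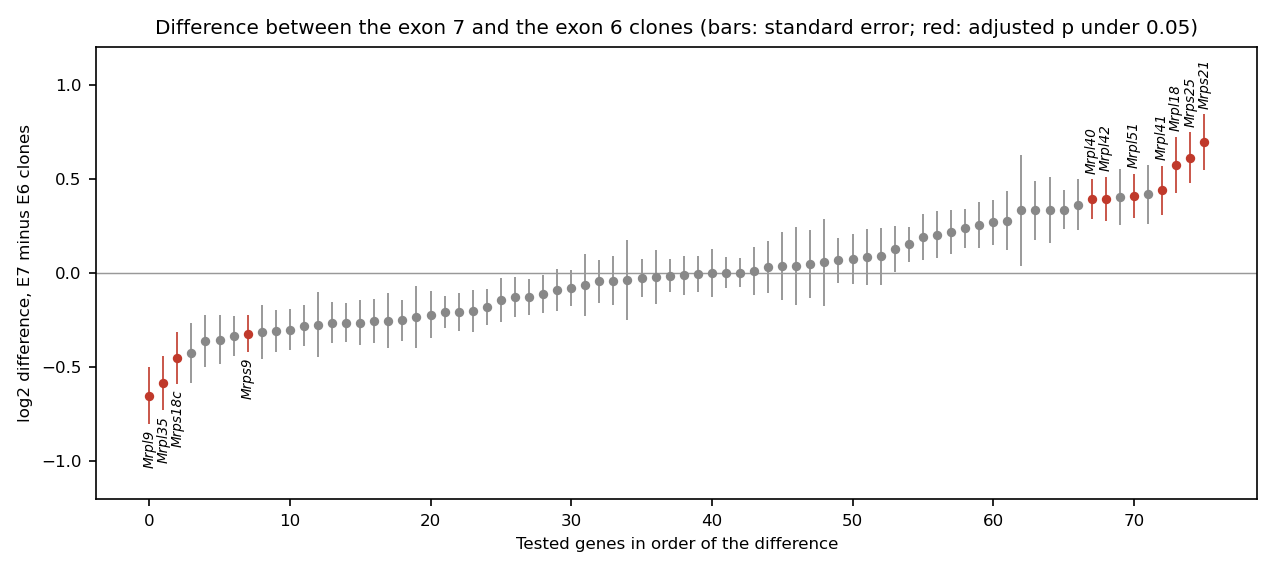
log2 difference between the mean of the exon 7 clones and the mean of the exon 6 clones for the 76 tested genes in order of size (bars: SE; red: adjusted p under 0.05, edgeR quasi-likelihood test). The 7 genes called higher include *Mrps21* at 0.69, and the 4 called lower include *Mrpl9* at -0.65.

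*Mrps25* encodes a small-subunit protein specific to mitochondria and lies on chromosome 6 (92169525 to 92184033, minus strand). Its level was 32.4, 26.5 and 30.6 CPM in parental cells, 27.1, 37.4 and 31.4 in E6.1 and 19.5, 22.9 and 26.3 in E6.2. It was 56.4, 42.6 and 44.4 CPM in E7.1 and 40.7, 40.3 and 26.3 in E7.2. All E7.1 libraries lay above, and all E6.2 libraries below, the parental range, and replicate 3 of E7.2 was level with the highest E6.2 library. The difference between exon 7 and exon 6 clones had an adjusted p of 0.0149, below 0.05 in 23 of 25 alternative fits, and was 0.78 on the log2 scale without the 2 libraries that stood apart. With 53.7% of its exon bases shared with Nr2c2, its counts come from the remainder.

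*Mrpl18* encodes a protein of the central protuberance of the large subunit that is also known to bind 5S ribosomal RNA, and lies on chromosome 17 (12911349 to 12916345, minus strand), where 10.1% of its exon bases are shared with *Tcp1*. Its level was 72.5, 48.2 and 56.1 CPM in parental cells and 124, 78.3 and 87.7 CPM in E7.1, where every library was above the parental range. In E7.2 it was 65.4, 62.4 and 52.4 CPM, within the parental range. The exon 6 libraries, between 37.2 and 60.8 CPM, overlapped the parental ones. The difference between the exon 7 and exon 6 clones had an adjusted p of 0.0262 and was below 0.05 in 20 of 25 alternative fits. Against parental cells the log2 fold change was 0.71 in E7.1 (adjusted p = 0.0882), compared with 0.03 in E7.2.

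*Mrpl9* and *Mrpl35* encode large-subunit proteins with bacterial counterparts. *Mrpl9* lies on chromosome 3 (94443318 to 94451130, plus strand) and was at 77.05, 121 and 132 CPM in parental cells. Its level was 158, 126 and 155 CPM in E6.1 libraries and 94.5, 137 and 176 CPM in those of E6.2. In E7.1 it was 71.7, 77.6 and 73.9 CPM, and in E7.2 109, 99.9 and 116 CPM. E7.1 was low and narrow in spread, but parental replicate 1 lay in its range. *Mrpl35* was at 49.2, 71.7 and 84.7 CPM in parental cells, from 66.3 to 102 CPM in the exon 6 clones and from 45.7 to 74.96 CPM in the exon 7 clones. The adjusted p of the difference was 0.0190 for *Mrpl9* and 0.0221 for *Mrpl35*, below 0.05 in 20 and 18 of 25 alternative fits. Parental replicate 1, low for both genes, widened the parental range, and neither gene passed the adjusted threshold in any clone against parental cells. Without that library *Mrpl9* was called lower in E7.1 (log2 fold change -0.75, adjusted p = 0.0358), the only call of either gene against parental cells in the alternative fits run for E7.1.

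**Figure D5:**
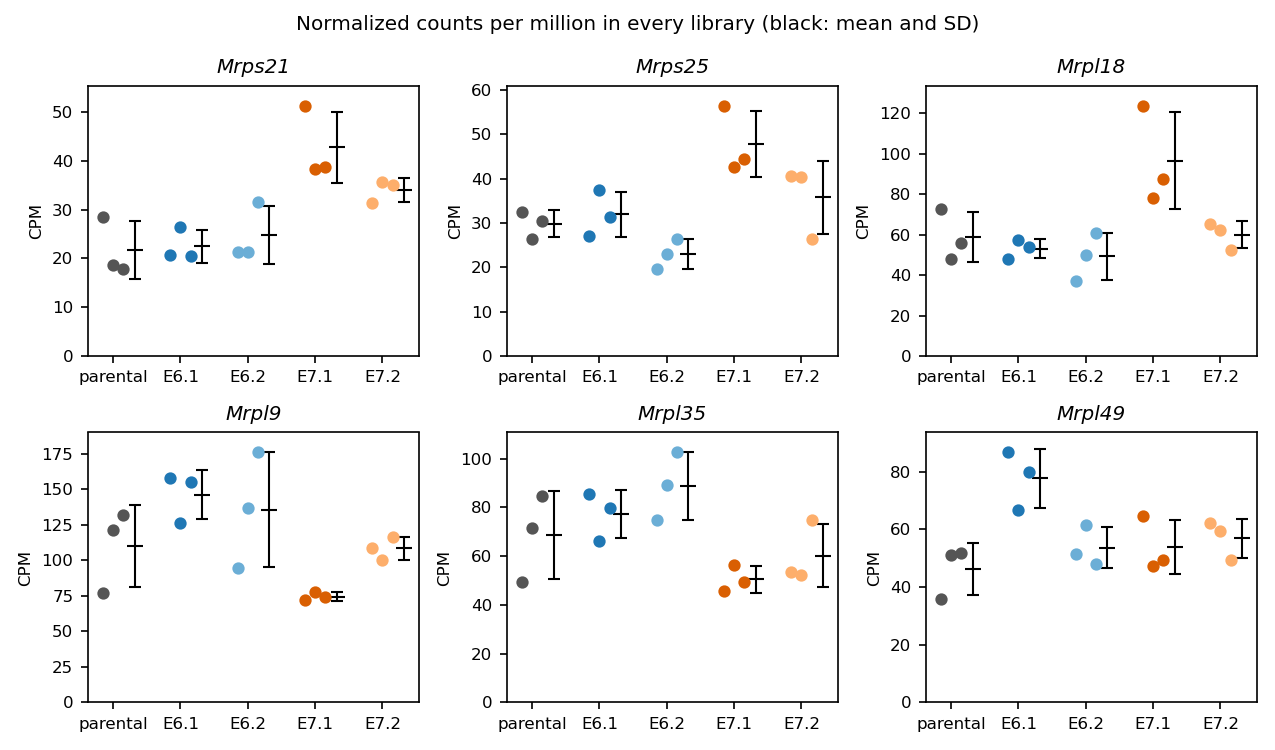
Level of 6 genes in every library, in CPM (points: libraries, replicates 1 to 3 from left; black: mean and SD of 3). *Mrps21* is high in both exon 7 clones, *Mrps25* and *Mrpl18* are highest in E7.1, *Mrpl9* and *Mrpl35* are lowest in E7.1, and *Mrpl49* is highest in E6.1.

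Among the other members called between the exon 7 and exon 6 clones, *Mrpl41*, *Mrpl51*, *Mrpl42* and *Mrpl40* encode large-subunit proteins specific to mitochondria, and their adjusted p ranged from 0.0294 (*Mrpl40*) to 0.0441 (*Mrpl42*). *Mrpl41* was at 26.3, 23.6 and 21.9 CPM in E7.1 and at 18.8, 11.1 and 15.1 CPM in parental cells. In E7.2 it was at 19.8, 14.7 and 15.3 CPM, overlapping the parental libraries. *Mrpl42* was at 135, 110 and 106 CPM in E7.1, above the parental libraries (89.6, 68.0 and 80.2 CPM), and at 97.3, 94.5 and 70.8 CPM in E7.2. *Mrpl51* was at 79.6, 54.2 and 64.0 CPM in E7.1 and at 43.7, 40.9 and 42.8 CPM in parental cells, with 53.2, 48.7 and 39.2 CPM in E7.2. In *Mrpl40*, *Mrpl42* and *Mrpl51*, all E7.1 libraries were above the parental range and replicate 3 was the lowest E7.2 library. *Mrps9*, which has a bacterial counterpart in the head of the small subunit, was at 48.7, 47.9 and 48.5 CPM in parental cells, and all 6 exon 7 libraries, from 39.9 to 44.8 CPM, were below that range (adjusted p = 0.0479 against the exon 6 clones). In the alternative fits it was called in 7 of 25.

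The clones made with the same guide target were compared as a measure of how much 2 edited lines differ. Between E6.2 and E6.1, 0 members were called (1.24% of all genes), with 6 at an unadjusted p under 0.05, all lower in E6.2, or 7.89% (all genes: 7.59% higher, 5.34% lower). Between E7.2 and E7.1, 0 were called (0.59% of all genes), with 13 at an unadjusted p under 0.05, 2 higher in E7.2, or 2.63%, and 11 lower, or 14.5% (all genes: 7.47% and 5.8%). DESeq2's Wald test and edgeR's likelihood ratio test also called 0 in both. The lowest adjusted p was 0.205 between the exon 6 clones and 0.223 between the exon 7 clones, the latter for *Mrpl18* (log2 difference -0.68 ± 0.21).

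By subunit, the medians lay close together. The 49 large-subunit genes had median log2 fold changes of 0.13, 0.14, 0.15 and 0.14, with 42, 38, 34 and 36 above 0. The 26 small-subunit genes had 0.16, 0.12, 0.14 and 0.04, with 22, 21, 18 and 15 above 0. The 8 genes around the tunnel exit, where the nascent chain meets the inner membrane, had medians of 0.19, 0.19, 0.13 and 0.21, and 8, 8, 4 and 6 of them were above 0. The 8 genes of the central protuberance had medians of 0.28, 0.19, 0.11 and 0.14. The 3 stalk genes (*Mrpl10*, *Mrpl11* and *Mrpl12*) were above 0 in all 4 clones, between 0.01 and 0.58. Large-subunit genes with a bacterial counterpart (30) had medians of 0.12, 0.12, 0.14 and 0.13, and the 19 tested mitochondria-specific ones had 0.16, 0.15, 0.22 and 0.14. In the small subunit the order was the opposite in 3 clones, with 0.12, 0.14, 0.18 and 0.13 for the 17 genes with a bacterial counterpart and 0.21, 0.05, 0.08 and -0.02 for the 9 mitochondria-specific ones. No member of these groups passed the adjusted threshold in a clone, apart from *Mrps21*.

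The 3 paralogs of the Mrps18 family occupy different places in the ribosome. All had a log2 difference below 0 between the exon 7 and exon 6 clones, namely -0.26 for *Mrps18a* (adjusted p = 0.103), -0.26 for *Mrps18b* (adjusted p = 0.156) and -0.45 for *Mrps18c* (adjusted p = 0.0490), and only the last passed. *Mrps18c* was at 53.9, 64.5 and 85.1 CPM in parental cells, and the E6.1 libraries were at 83.4, 65.8 and 83.3 CPM and the E6.2 libraries at 65.2, 91.9 and 54.4 CPM. It was at 61.6, 53.1 and 51.4 CPM in E7.1 and 55.8, 49.3 and 53.4 CPM in E7.2. The exon 7 libraries overlapped both the parental and the E6.2 libraries, and *Mrps18c* was called in 8 of 25 alternative fits.

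Members were also grouped by chromosome. The 6 members on chromosome 7 (*Mrps12*, *Mrpl46*, *Mrps11*, *Mrpl48*, *Mrpl17* and *Mrpl23*) had the largest median of any chromosome with 3 or more members, 0.40 in E7.1. In the other clones their medians were 0.23 (E6.1), 0.18 (E6.2) and 0.29 (E7.2). Among chromosomes with 3 or more members, chromosome 9 was higher in E6.1 (0.31) and chromosome 3 in E6.2 (0.30), but none was higher in E7.2. All 1019 tested genes of chromosome 7 had medians of 0.02, 0.14, 0.02 and 0.11 in the 4 clones, below those of the 6 members in each clone. *Mrps11* and *Mrpl46* overlap at their starts on opposite strands (78783119 to 78792989, plus, and 78775236 to 78783531, minus), both encoding ribosomal proteins. *Mrps11* was at 10.04, 10.1 and 9.23 CPM in parental cells and 19.3, 14.4 and 12.5 CPM in E7.1, and *Mrpl46* was at 21.8, 22.2 and 25.9 CPM in parental cells and 32.7, 29.3 and 24.7 CPM in E7.1. Their log2 fold changes there were 0.65 (adjusted p = 0.0758) and 0.31 (adjusted p = 0.210). In all, 17 members (22.4%) had a neighbour starting within 1000 bases on the opposite strand and leading away, compared with 11.6% of tested protein-coding genes, among them *Mrps12* with *Sars2*, the mitochondrial seryl-tRNA synthetase.

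Other genes needed to make and run the mitochondrial ribosome were counted in the same fit. The 25 assembly factors and ribosomal RNA enzymes had median log2 fold changes of 0.20, 0.18, 0.03 and 0.17, with 21, 20, 14 and 17 above 0 and 0 called in any clone. At an unadjusted p under 0.05, 7, 3, 3 and 2 of the 25 were above parental cells and 0, 0, 2 and 0 below. For this list and those that follow, the shares of all genes were 2.87%, 6.26%, 9.94% and 5.98% above. They were 3.84%, 6.79%, 10% and 7.34% below. In E6.1 the smallest p among the 25 assembly factors was that of *Trub2*, a pseudouridine synthase (0.43 ± 0.13, adjusted p = 0.372). A further list of 6 genes lay outside the Mrpl and Mrps series. It held genes of ribosome proteins, such as *Dap3* and *Ptcd3*, and *Oxa1l*, whose product is not a ribosomal subunit. The 6 genes had medians of 0.14, 0.18, 0.32 and 0.29, with 0 called. At an unadjusted p under 0.05, 0, 1, 2 and 0 were above, among them *Aurkaip1* in E6.2 (0.48 ± 0.18, adjusted p = 0.276). The 12 matched translation factors had medians of 0.00, -0.02, 0.11 and 0.04, with 0 called and 0 at an unadjusted p under 0.05. The 20 enzymes that charge mitochondrial transfer RNAs had medians of 0.07, 0.04, 0.24 and 0.04, with 0 called, and at an unadjusted p under 0.05 they numbered 1, 0, 4 and 1 above and 0, 1, 0 and 1 below. Those with the smallest p were *Hars2* in E6.1 (0.36, adjusted p = 0.211), *Iars2* in E6.2 (-0.43, adjusted p = 0.193), *Rars2* in E7.1 (0.43, adjusted p = 0.0882) and *Pars2* in E7.2 (0.46, adjusted p = 0.288). Between exon 7 and exon 6 clones, 4 of the 25 assembly factors were lower and 0 higher (all genes: 5.85% lower, 6.21% higher): *Mterf3* (-0.52, adjusted p = 0.0273), *Mettl17* (-0.49, adjusted p = 0.0181), *Rpusd4* (-0.46, adjusted p = 0.0346) and *Ngrn* (-0.41, adjusted p = 0.0336). *Mettl17* was called in 21 of 25 alternative fits and the others in 14 each, and leaving out 1 library kept the call in 11 of 15 fits for *Mettl17*, 7 for *Rpusd4* and 6 each for *Mterf3* and *Ngrn*. Of the charging enzymes, *Iars2* (0.38, adjusted p = 0.0243) and *Rars2* (0.33, adjusted p = 0.0330) were higher and *Hars2* (-0.22, adjusted p = 0.0473) was lower, called in 19, 16 and 5 of the 25 alternative fits.

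The 13 messenger RNAs of the mitochondrial genome, which this ribosome translates, had medians of -0.21, 0.19, 0.23 and 1.15, with 0 called in any clone and 1 at an unadjusted p under 0.05, in E7.2. Their median varied from -1.62 (E6.1 replicate 1) to 1.93 (E7.2 replicate 3) among single libraries, a far wider range than the -0.16 to 0.34 of the nuclear genes for mitochondrial ribosomal proteins. The 86 tested cytosolic ribosomal protein genes, for scale, had medians of 0.13, 0.29, -0.07 and 0.59, of which the E6.2 and E7.2 values include the libraries that stood apart. One of them, *Rps2*, rose in E7.1 (log2 fold change 1.33 ± 0.29, adjusted p = 0.0464, called in 14 of 26 alternative fits), and *Rpl26* had the smallest p among all these lists in E7.2 (0.96 ± 0.34, adjusted p = 0.285). In E7.1 the median was thus above 0 for the mitochondrial and below 0 for the cytosolic ribosomal protein genes, and the difference between these medians was not tested. Relative to the parental mean, the cytosolic median was -0.41, 0.19 and -0.07 log2 units in E7.1 replicates 1, 2 and 3. The mitochondrial median was 0.20, 0.18 and 0.09, so both were above 0 in replicate 2.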

How the data were processed

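RNA from A20 parental cells and 4 *Foxp1* CRISPR clones (3 libraries each, 15 in all) was sequenced in read pairs. The deposited tables hold raw counts of read pairs per gene, which the authors made with HISAT and featureCounts 1.5.0 (file header) on GRCm38 (mm10), without strand, and read pairs that mapped to several places or overlapped several genes were not counted. Gene names, gene types and GC content were taken from GENCODE M21 by gene identifier. Positions, exon lengths and shared exon bases come from the exon coordinates given with the deposited counts.

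Low counts were removed with filterByExpr, libraries were scaled by TMM, and all 15 were fitted together, with line as factor, in edgeR 4.0.16 (glmQLFit, glmQLFTest; R 4.3.3). Adjusted p (Benjamini-Hochberg) covers all 13904 genes, with 0.05 as threshold. Fold changes are each clone minus parental, or exon 7 minus exon 6 clones. Levels are TMM-scaled CPM. At 26328054 to 39181530 counts per library, a floor of 3 counts corresponds to 0.0751 to 0.118 CPM. No libraries were copies of each other.

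Members and gene lists were chosen with earlier results of these data known. Named genes were those called in a comparison, those at an unadjusted p under 0.05 in 3 clones, the 3 with the largest fold change per clone, the 5 highest and 5 lowest per length, the untested member, the Mrps18 paralogs, *Mrps36* and the members of chromosome 7, and from the other lists the genes called and the smallest p per clone. *Mrpl44* was named after its promoter was read. The code was tested on simulated data. Alternatives were DESeq2 1.42.0, other scalings, filters and tests, an offset for length and GC content, a replicate block and leaving out libraries. The level of 1 marker gene is not reported here.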

Additional observations from a re-analysis of the deposited data

Results flagged for a closer look

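The members below differed between the exon 7 and the exon 6 clones in the direct test of that difference (edgeR quasi-likelihood test, adjusted p from 0.0136 to 0.0490 over all genes), which is what marked them. The log2 differences, exon 7 minus exon 6, were 0.69 for *Mrps21*, 0.61 for *Mrps25*, 0.57 for *Mrpl18*, 0.44 for *Mrpl41*, 0.41 for *Mrpl51*, 0.40 for *Mrpl42* and 0.39 for *Mrpl40*. They were -0.65 for *Mrpl9*, -0.59 for *Mrpl35*, -0.45 for *Mrps18c* and -0.32 for *Mrps9*. Each is a difference between means of 2 clones, which need not share it. Against parental cells, *Mrpl18*, *Mrpl41*, *Mrpl51* and *Mrpl42* were at 0.56 to 0.71 in E7.1 and 0.03 to 0.15 in E7.2. *Mrpl9* was at -0.57 and -0.02, whereas *Mrps21* was at 0.98 and 0.65. The values of the other genes are given above. *Mrps21* was called in 25 of 25 alternative fits (adjusted p from 0.000333 to 0.0496), *Mrps25* in 23, *Mrpl18* and *Mrpl9* in 20 each, *Mrpl35* in 18, *Mrpl40* in 16, *Mrpl51* in 13, *Mrpl41* in 12, *Mrpl42* in 10, *Mrps18c* in 8 and *Mrps9* in 7. Each target is represented by 2 lines of single-cell origin, so the exon targeted and the founder cells cannot be told apart. The p-values take their spread from libraries of the same line and do not measure the spread between clones of a target.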

How the results depend on the processing

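Counts of calls are given with the share of all genes called in the same fit. Members called in E7.1 numbered 11 with DESeq2's Wald test (8.32%), 9 with the likelihood ratio test (5.38%), 2 with the offset for gene length and GC content (0.813%), 0 with only the 6 libraries compared (1.29%), 0 with the replicate block (1.17%), and 0 with that offset and the replicate block together (0.748%), against 1 in the fit reported (1.22%). The fit reported had no replicate block. Of 30 same-number pairs of libraries, 11 had deviations correlated above 0.1 (range -0.124 to 0.426). The highest value was between replicate 3 of E6.2 and replicate 3 of E7.2, and pairs with different numbers reached 0.326. Whether libraries of the same number belong together was not tested. In E6.1, 1 member was called with the Wald test (1.11%), 1 with the likelihood ratio test (0.899%) and 1 without E6.2 replicate 3 and E7.2 replicate 3 (0.924%), against 0 (0.324%). Between exon 7 and exon 6 clones, 5 were called with library totals alone (9.86%) and 5 with no filter on low counts (6.17%), against 11 (12.1%). Among the 5 lines, 5 were called with no filter (6.53%), 17 with DESeq2's likelihood ratio test (22.5%), 12 with that of edgeR (17.6%), 1 with the replicate block (5.23%) and 5 with the offset (6.27%), against 3 (6.28%). The median log2 fold change in E7.1 was 0.21 with the offset (all genes: 0.063) and 0.21 with the offset and the block (all genes: 0.065). In E7.2 it was 0.052 with library totals alone (all genes: -0.081) and 0.089 with the offset (all genes: 0.068), and in E6.2 it was 0.044 with library totals (all genes: -0.018). In E6.2 it reversed to -0.01 without E6.2 replicate 3 and to -0.034 without both that library and E7.2 replicate 3, a fit chosen after these data had been seen. That fit called 17 in E7.1 (15.2%), 27 between exon 7 and exon 6 clones (33.1%) and 21 among the 5 lines (28.6%). The causes were not tested. Leaving out each library in turn gave 0 to 13 calls in E7.1 (0.209% to 7.05%), 1 to 23 between exon 7 and exon 6 clones (2.77% to 26.8%) and 0 to 16 among the lines (2.45% to 20.2%), with medians of 0.12 to 0.195 in E6.1, -0.01 to 0.23 in E6.2, 0.13 to 0.22 in E7.1 and 0.064 to 0.16 in E7.2.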
